A study of Homo sapiens with 19 samples.

Results

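The start sites of 9 genes that license and fire replication origins, CDC6, CDT1, ORC1, GMNN, CDC45, GINS1, GINS2, DBF4 and CDC7, were examined in 10 deposited lists of intervals from chromatin immunoprecipitation with sequencing (ChIP-seq). The genes were chosen by name and function, with earlier results of these data known. An interval was counted for a gene when at least 1 base of it lay within 2 kb either side of the gene's hg19 start site. By this rule 33 of the 203381 intervals in the series belonged to the 9 genes, 22 of them from the retinoblastoma protein RB and 11 from V5-tagged E2F1.

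The samples were cultures of C4-2 and VCaP, established prostate cancer cell lines, and all were kept in medium with 5% charcoal-stripped serum, which is low in steroid hormones. The antibody against RB was used on cells without treatment, in 2 libraries of C4-2 and a single one of VCaP. The antibody against the V5 tag was used on C4-2 derivatives whose E2F1 is under tetracycline control, as wild type (WT) and as K185R, and each treatment had 2 libraries. The treatments were none, 0.25 ug/ml doxycycline for 3 days, 50 uM of the LSD1 inhibitor GSK2879552 for 24 hours, and that doxycycline course followed by GSK2879552. Each group is represented by 1 list, so no value below carries a replicate error and no test between groups was made. The V5 lists bear the words siNTC and siRB in their names where the labels give no treatment and doxycycline, and the groups here follow the labels. The sources used here do not state whether tagged protein was present in cells without doxycycline, and an anti-V5 interval is therefore reported as an interval only.

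Replication origins are licensed in G1 phase, when the origin recognition complex (of which ORC1 is a subunit), CDC6 and CDT1 load the MCM helicase onto DNA. Geminin, the product of GMNN, binds CDT1 and blocks a further round of loading. At the start of S phase the kinase CDC7 with its activator DBF4, together with cyclin-dependent kinases, allows CDC45 and the GINS complex to join MCM as the active helicase. Many of these genes are textbook targets of E2F factors, which RB binds and restrains in cells that are not dividing.

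All 9 genes matched an entry in the RefSeq promoter table (build GRCh38.p14), which holds 250 bases before to 50 bases after each start. The 110 bases before the start are shown for genes where RB and V5 intervals lay close to the start, and for ORC1 and GINS2, which had RB intervals only. Capitals mark 6 spellings of E2F-type sites, read on both strands: TTTGGCGC, TTTCCCGC, TTTGCCGC and TTTCGCGC, and the shorter or related GGCGGGA and GGCGCGAA, both of which were added after the sequences had been seen. GGCGGGA can overlap TTTCCCGC read on the other strand, as it does in the GINS2 line.
CDC6, chr17:40287769-40287878, plus strand: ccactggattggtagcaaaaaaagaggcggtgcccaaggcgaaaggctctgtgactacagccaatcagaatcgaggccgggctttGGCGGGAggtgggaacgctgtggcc
CDT1, chr16:88803679-88803788, plus strand: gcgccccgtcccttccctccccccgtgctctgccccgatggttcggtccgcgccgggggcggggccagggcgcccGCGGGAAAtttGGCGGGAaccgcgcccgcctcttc
ORC1, chr1:52404424-52404533, minus strand: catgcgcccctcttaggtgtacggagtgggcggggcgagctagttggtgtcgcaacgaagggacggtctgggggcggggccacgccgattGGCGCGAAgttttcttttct
GINS2, chr16:85688955-85689064, minus strand: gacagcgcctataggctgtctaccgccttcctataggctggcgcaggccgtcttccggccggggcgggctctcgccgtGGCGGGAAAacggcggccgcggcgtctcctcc
DBF4, chr7:87876383-87876492, plus strand: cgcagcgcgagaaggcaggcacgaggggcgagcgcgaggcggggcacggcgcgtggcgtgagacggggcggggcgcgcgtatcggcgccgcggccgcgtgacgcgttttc
CDC7, chr1:91500741-91500850, plus strand: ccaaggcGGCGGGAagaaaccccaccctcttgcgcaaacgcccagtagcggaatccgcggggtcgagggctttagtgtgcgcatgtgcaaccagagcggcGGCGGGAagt

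Where the site lay past a start, or between the alternative RefSeq starts of a gene, 30 bases around it are shown.
CDC6, chr17:40287875-40287904, plus strand: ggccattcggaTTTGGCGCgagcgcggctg
GMNN, second start, chr6:24775322-24775351, plus strand: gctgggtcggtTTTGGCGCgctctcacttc
GINS1, chr20:25407667-25407696, plus strand: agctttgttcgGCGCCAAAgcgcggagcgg
CDC7, second start, chr1:91501033-91501062, plus strand: gtgcagttcctTTTCCCGCCccccttcgga
CDC45, start 3, chr22:19479887-19479916, plus strand: agccgtgatttGGCGGGAgtcttgaccgcc

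At least 1 of the first 4 spellings stood in a promoter of 6 of the 9 genes (CDC6, CDT1, GMNN, GINS1, GINS2 and CDC7), against 3.99% of the 27305 genes in the table. Counted by promoter, of which a gene can have several, the share was 3.31% of 35116. With the added spellings the count was 8 of 9, and DBF4 was the gene without a match in its window. ORC1 and CDC45 were counted through the added spellings only. Of all genes, 20.7% had a match in this wider set. Because the added spellings were picked after the members' sequences had been seen, the 8 of 9 cannot be weighed against that share. The CCAAT box (CCAAT) was found in 6 of 9 genes and in 39.7% of all genes, and the SP1 site (GGGCGG) in 8 of 9 and in 48.3%. The CHR element (TTTGAA) was found in DBF4 alone, across its start, and in 18.2% of all genes. GC content was between 49.7% and 78.3% in the 13 promoters of the 9 genes, against a median of 58.7% over the whole table. These matches describe the letters of the windows and are not evidence of binding.

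RB intervals lay at the start sites of all 9 genes in both cell lines. Among 758641 consecutive windows of 4001 bases along chromosomes 1 to 22 and X, 1.09% had an RB interval of C4-2, 2.32% one of VCaP and 0.745% one of both. These windows are mostly not gene starts, and the share of all hg19 gene starts was not analysed here. Strong and weak refer here to −log10 q, where q is the peak caller's adjusted p-value. The median of the strongest interval per gene was 17.5 in −log10 q in C4-2 and 24.2 in VCaP, where the medians of the whole lists were 5.94 and 5.21. The deposited fold enrichment is a linear ratio of summit reads to local background, with 1 added to each. Its median was 9.93 and 11.5 at the genes, against 5.69 and 5.50 over the lists. Reads at the summit, solved from the deposited fold and p, had medians of 25 and 30 at the genes and 14 and 12 over the lists. Folds and −log10 q are the authors' values for single intervals and order intervals only within their list. Ranks were computed here from the deposited −log10 q, and a percent place in a list is counted from its highest value.

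**Figure D1:**
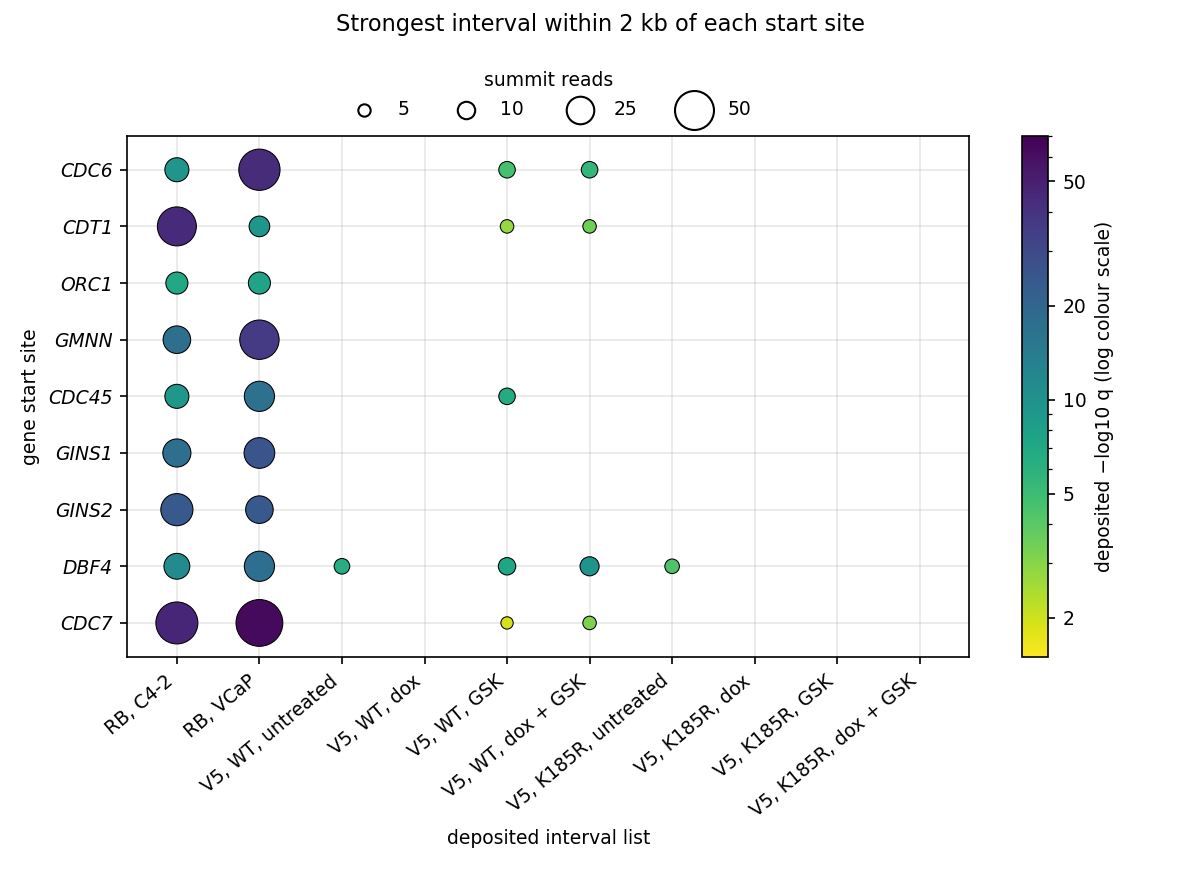
The strongest interval within 2 kb of each of the 9 start sites (rows) in each of the 10 lists (columns), with circle area for reads at the summit and colour for the deposited −log10 q on a log scale; no circle means no interval. RB columns are filled for all 9 genes, while V5 circles are few, small and mostly in the WT columns with GSK2879552 (GSK; dox is doxycycline).

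Among the licensing factors, CDT1 ranked far above CDC6 in the C4-2 RB list and far below it in the VCaP list. At CDT1, the MCM loading factor, the C4-2 RB interval (chr16:88869960-88870427, hg19) had a fold of 15.9, a −log10 q of 44.1 and 50 summit reads. It ranked 128 of 9146 intervals. The VCaP interval at CDT1 (chr16:88869842-88870332) had a fold of 7.83, a −log10 q of 9.24 and 14 summit reads, and ranked 3201 of 17026. CDT1 was thus among the strongest 1.40% of RB intervals in C4-2 and at 18.8% of the VCaP list. At CDC6, the partner of CDT1 in loading, the order was the other way round. The C4-2 interval (chr17:38443804-38444281) had a fold of 6.92, a −log10 q of 9.42 and 19 reads, and stood at 25.3% of its list. The VCaP interval (chr17:38443862-38444324) had a fold of 13.5, a −log10 q of 43.8 and 56 reads, and stood at 0.899%. Local background, solved from the deposited values, was 2.21 reads at CDT1 and 1.89 at CDC6 in C4-2. In VCaP it was 0.916 at CDT1 and 3.24 at CDC6. Because −log10 q depends on the number of reads as well as on their ratio to background, these ranks do not order enrichment alone. The summits of the 2 cell lines were close together, 6 bases apart at CDT1 and 31 bases apart at CDC6.

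ORC1, the gene of the largest origin recognition subunit, had the lowest RB −log10 q of the 9 in both lists. Its C4-2 interval (chr1:52869609-52869746) had a fold of 6.09, a −log10 q of 6.97 and 16 reads. Its VCaP interval (chr1:52869661-52870337) had a fold of 6.24, a −log10 q of 7.57 and also 16 reads. These intervals stood at 40.3% and 27.1% of their lists, still in the stronger part of each. The C4-2 summit was at 454 bases downstream of the start and the VCaP summit at −84, upstream of it, 538 bases apart, although the intervals overlapped. In the RefSeq promoter table PRPF38A has a start within 2 kb of that of ORC1, so an interval here need not belong to ORC1.

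GMNN, which encodes the inhibitor of licensing, had 2 RB intervals in C4-2 and 1 wide interval in VCaP. The stronger C4-2 interval (chr6:24775422-24775726) had a fold of 10.1, a −log10 q of 17.5 and 25 reads, and its summit was 409 bases downstream of the start. The weaker one had its summit at 145 bases, a fold of 5.79, a −log10 q of 5.85 and 14 reads. The VCaP interval (chr6:24775064-24775877) spanned both, with a fold of 11.5, a −log10 q of 36.1 and 51 reads. Its summit fell 1 base from that of the stronger C4-2 interval. RefSeq lists a second GMNN start 476 bases downstream of the first, and the TTTGGCGC printed above lies before this second start.

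Among the firing factors, CDC7, the kinase that phosphorylates MCM, had the highest RB −log10 q and the most summit reads of the 9 genes in each cell line, although in C4-2 the fold at CDT1 (15.9) was higher. In C4-2 (chr1:91966261-91966966) the fold was 14.0, the −log10 q 46.1 and the summit reads 58, which ranked 112 of 9146. In VCaP (chr1:91966218-91966804) the fold was 16.9, the −log10 q 63.6 and the reads 72, which ranked 71 of 17026. The summits lay 212 and 162 bases downstream of the start. RefSeq lists a second CDC7 start 261 bases downstream of the first, and E2F-type spellings precede both. DBF4, the activator of this kinase, had RB intervals that ranked below those of CDC7, at 19.2% of the C4-2 list and 5.33% of the VCaP list. The C4-2 interval (chr7:87505268-87505748) had a fold of 7.21, a −log10 q of 11.2 and 22 reads. The VCaP interval (chr7:87505232-87505944) had a fold of 8.56, a −log10 q of 17.7 and 30 reads. DBF4 shares its upstream side with SLC25A40, whose RefSeq start is within 2 kb, and CDC7 with the RNA gene LOC105378856.

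The GINS genes, which encode subunits of the active helicase, had RB summits within 50 bases of their starts in both cell lines. GINS1 had a fold of 9.93, a −log10 q of 17.7 and 26 reads in C4-2 (chr20:25388227-25388491), and 12.7, 25.6 and 31 in VCaP (chr20:25388139-25388544). GINS2 had a fold of 11.1, a −log10 q of 24.4 and 34 reads in C4-2 (chr16:85722282-85722797), and 14.0, 24.2 and 25 in VCaP (chr16:85722378-85722750). They stood at 8.33% and 4.58% of the C4-2 list and at 2.56% and 2.91% of the VCaP list. RefSeq places the gene model of LOC105372581 within 2 kb of the GINS1 start and that of LOC124903740 within 2 kb of the GINS2 start.

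CDC45, which acts with GINS and MCM in that helicase, had several separate RB intervals. In C4-2 the stronger one (chr22:19466618-19466742) had its summit at −686, upstream of the start, with a fold of 6.67, a −log10 q of 9.0 and 19 reads. The other (chr22:19467377-19467488), at 34 bases past the start, had a fold of 5.08, a −log10 q of 4.79 and 14 reads. In VCaP the order was reversed. The interval at the start (chr22:19467139-19467545, summit at −22) had a fold of 8.13, a −log10 q of 16.9 and 30 reads. The upstream one (summit at −646) had a fold of 4.93, a −log10 q of 6.11 and 18 reads. A further VCaP interval had its summit at −1973 and a fold of 5.65. RefSeq places the gene model of UFD1 within 2 kb on the upstream side of CDC45, so the upstream intervals need not belong to CDC45.

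**Figure D2:**
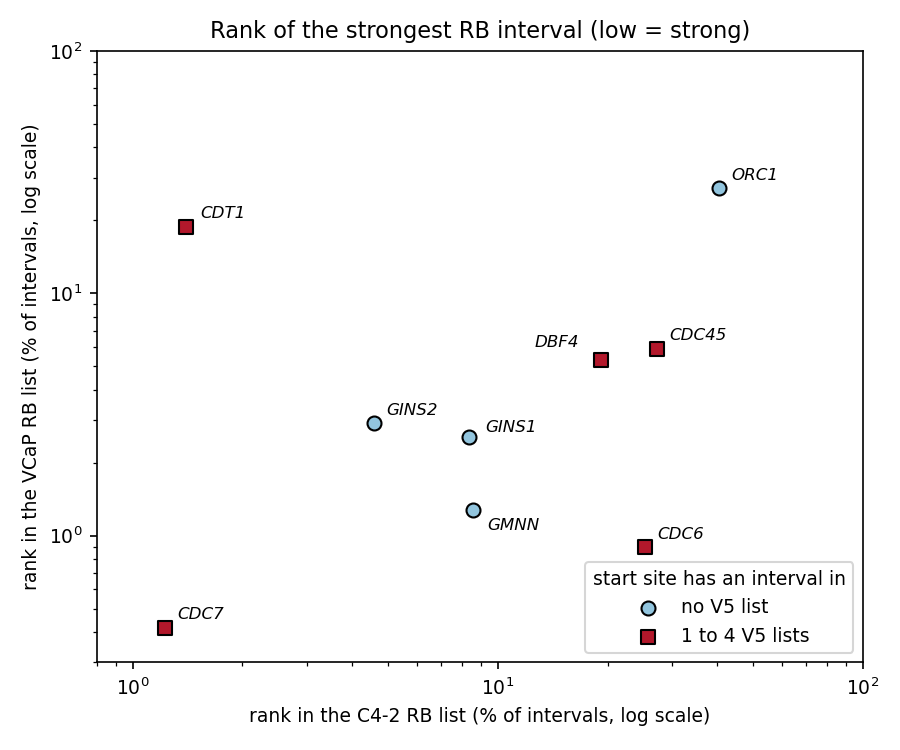
Rank of the strongest RB interval at each of the 9 start sites in the C4-2 list (horizontal) and the VCaP list (vertical), as percent of the list's intervals by −log10 q, both on log axes, with low values for strong intervals. By −log10 q CDC7 ranks highest of the genes in both lists and ORC1 lowest in both, while CDT1 (1.40% and 18.8%) and CDC6 (25.3% and 0.899%) stand at opposite corners. Squares mark genes with an interval in 1 to 4 V5 lists, which lie at both high and low RB ranks.

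V5 intervals at these genes were found mostly in WT cells given GSK2879552. With GSK2879552 alone, 5 of the 9 genes had one (CDC6, CDT1, CDC45, DBF4 and CDC7), and with doxycycline followed by GSK2879552, 4 had one (CDC6, CDT1, DBF4 and CDC7). DBF4 had an interval in untreated WT cells and in untreated K185R cells as well. No interval was found at any of the 9 genes in the doxycycline lists of WT and K185R without the inhibitor, nor in the K185R lists with GSK2879552 and with both agents.

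To read these counts, V5 intervals were also counted in windows of the same length centred on the summits of all 5393 C4-2 RB intervals that overlapped an RB interval of VCaP. The member genes all carry RB in both lines, so these windows are a nearer comparison than windows along the genome. They were not matched to the genes for RB strength or for lying at gene starts. Median −log10 q of the genes' strongest RB intervals was 17.5 in C4-2 and 24.2 in VCaP. Over the whole RB lists, which hold more intervals than those used for the windows, it was 5.94 and 5.21. The median of the 5393 intervals themselves was not analysed here. With GSK2879552 alone, 13.8% of the RB windows and 0.370% of windows along the genome had a WT V5 interval, against 5 of 9 genes (55.6%). With both agents the shares were 16.4% and 0.512%, against 4 of 9 genes (44.4%). In untreated WT cells they were 13.8% and 2.02%, against 1 of 9 genes (11.1%), and with doxycycline 15.4% and 8.55%, against 0 of 9. For K185R the shares of RB windows and of genome windows were 11.9% and 7.44% untreated, against 1 of 9 genes. They were 6.92% and 3.00% with doxycycline, 7.40% and 1.33% with GSK2879552, and 4.10% and 0.463% with both, against 0 of 9 genes in each. For untreated WT and untreated K185R the genes thus lay near the share of RB windows. In the 4 lists with 0 of 9, these shares would correspond to about 1 gene or fewer.

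**Figure D3:**
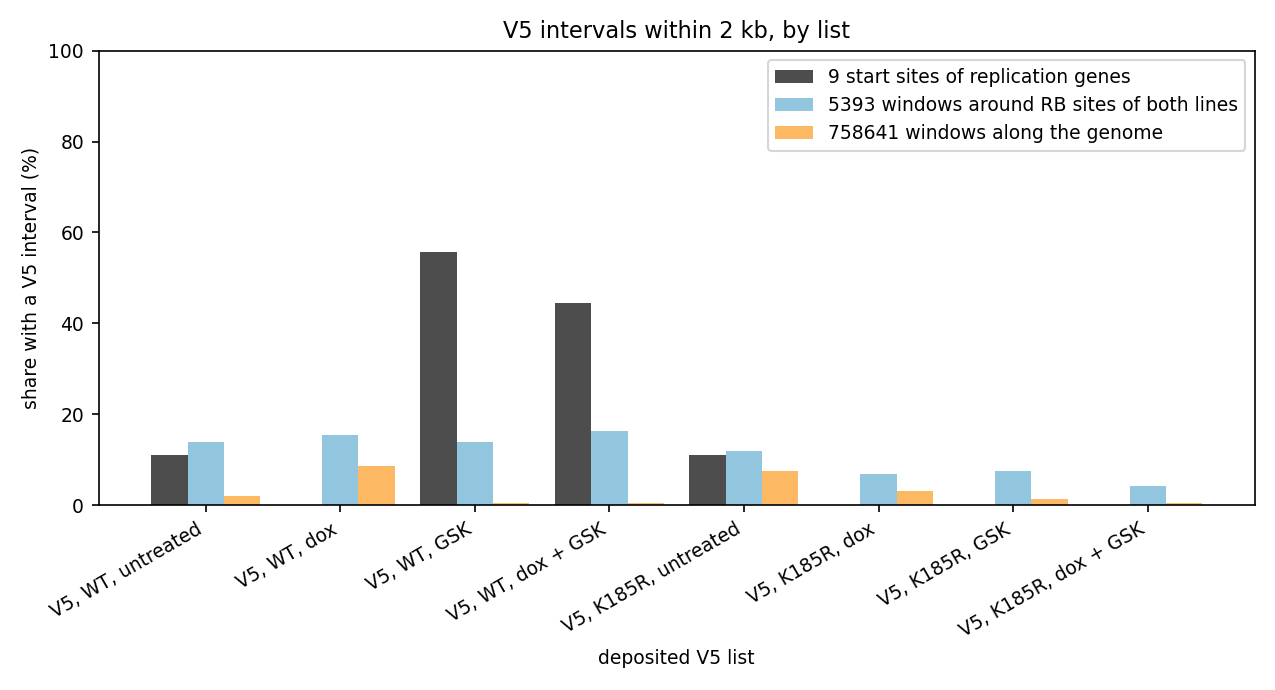
Share with a V5 interval within 2 kb, in percent, for the 9 start sites (grey), the windows around RB sites of both cell lines (blue) and the windows along the genome (orange), in each of the 8 V5 lists; bars carry no error because each list is 1 value. The grey bars stand at 55.6% and 44.4% in the WT lists with GSK2879552 (GSK) and with doxycycline plus GSK2879552 (dox + GSK), at 11.1% in both untreated lists and at 0 in the other 4.

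Over all V5 lists, 5 of the 9 genes had an interval in any WT V5 list, against 32.4% of RB windows, and 1 of 9 in any K185R V5 list, against 16.6%. The 4 genes CDC6, CDT1, CDC45 and CDC7 had an interval in a WT list and in no K185R list, against 21.4% of RB windows. The same 4 genes had one in a WT list with GSK2879552 and in no WT list without it, against 9.92%. Intervals of both WT lists with the inhibitor lay at CDC6, CDT1, DBF4 and CDC7, 4 of the 9 genes, against 8.62% of RB windows. These are 4 of the 5 genes found with GSK2879552 alone and 4 of the 4 found with both agents. Among RB windows, 465 had intervals of both lists, out of 743 with GSK2879552 alone and 886 with both agents. The remaining 4 genes, ORC1, GMNN, GINS1 and GINS2, had no V5 interval in any list, as was the case for 62.0% of RB windows.

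Each V5 interval at the genes rested on 5 to 12 summit reads. Among the licensing genes, CDC6 had 9 summit reads (95% exact Poisson interval 4.12 to 17.1) in each of the WT lists with GSK2879552. The interval with GSK2879552 alone (chr17:38443990-38444215) had a fold of 6.24 and a −log10 q of 4.65, at 36.5% of its list. The one with both agents (chr17:38444053-38444244) had a fold of 6.77 and a −log10 q of 5.56, at 24.8%. Their summits, at −66 and 14 bases from the start, lay upstream and downstream of the start and within 64 bases of the C4-2 RB summit. CDT1 had 6 reads in each of the same lists (2.20 to 13.1). Its folds were 5.04 and 5.44 and its −log10 q 2.74 and 3.51, at 73.4% and 49.8% of the lists. At CDT1, which was at 1.40% of the C4-2 RB list, the V5 intervals thus stood in the middle and the lower part of their lists.

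Among the firing genes, DBF4 had V5 intervals in more lists than any of the other 8 genes. Untreated WT cells (chr7:87505571-87505815) had 8 summit reads (3.45 to 15.8), a fold of 7.16 and a −log10 q of 6.49. Untreated K185R cells (chr7:87505621-87505772) had 7 reads (2.81 to 14.4), a fold of 5.93 and a −log10 q of 4.41. These intervals ranked 912 of 15099 and 4701 of 55681, at 6.04% and 8.44% of their lists. With GSK2879552 the WT interval (chr7:87505597-87505820) had 10 reads (4.80 to 18.4), a fold of 7.71 and a −log10 q of 7.21. It ranked 532 of 2805, at 19.0% of its list. With both agents (chr7:87505498-87505828) it had 12 reads (6.20 to 21.0), a fold of 8.91 and a −log10 q of 9.64. It ranked 433 of 3874, at 11.2% of its list. The lists differ in length, so percent places do not order these intervals across lists. The counting intervals of all 4 overlap, but the counts are not scaled to the depth of each list and do not compare the groups. The 4 V5 summits fell between 124 and 199 bases downstream of the DBF4 start, while the RB summits lay at −63 and −122. Every one of these V5 intervals still overlapped an RB interval of each cell line.

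CDC7, with the highest RB −log10 q of the 9, had V5 intervals of low rank. With GSK2879552 alone the WT interval (chr1:91966281-91966495) had 5 reads (1.62 to 11.7), a fold of 4.32 and a −log10 q of 1.92, and ranked 2721 of 2805. With both agents (chr1:91966236-91966426) it had 6 reads (2.20 to 13.1), a fold of 5.28 and a −log10 q of 3.20, and stood at 55.7%. The V5 summits lay at −104 and −56, upstream of the start, and the nearest C4-2 RB summit was 316 and 268 bases away. At CDC45 the one V5 interval, in WT with GSK2879552 alone (chr22:19466538-19466797), had 9 reads (4.12 to 17.1), a fold of 7.41 and a −log10 q of 6.68, at 21.0% of its list. It was not at the start but at −702, 16 bases from the upstream C4-2 RB summit and on the side of UFD1. All 11 V5 intervals at the genes overlapped an RB interval of both cell lines, at a median distance of 187 bases between the V5 and the nearest C4-2 RB summit.

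**Figure D4:**
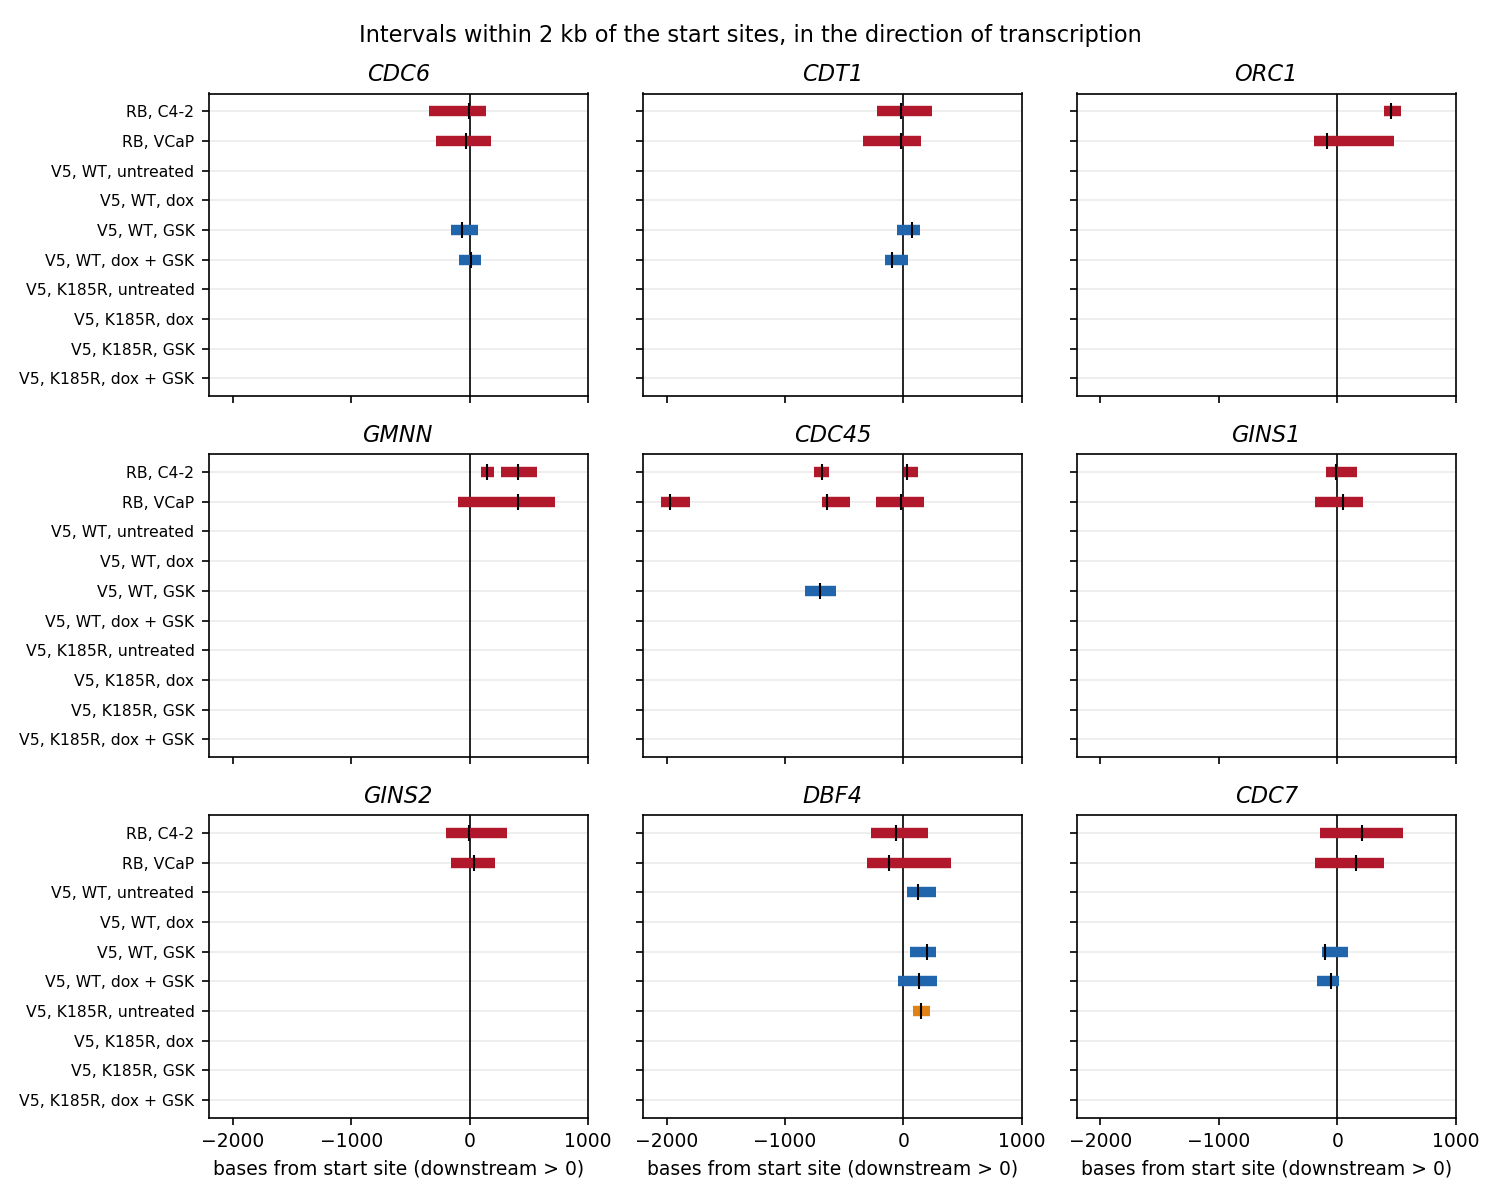
Positions of all 33 intervals relative to the start site of each gene, in bases along the direction of transcription, with RB lists in red, WT V5 lists in blue, K185R V5 lists in orange and black ticks at the summits. Most bars straddle the start; at CDC45 the V5 bar lies over the upstream RB interval (summit at −702), and at DBF4 the V5 ticks (124 to 199) lie to the right of the RB ticks (−63 and −122).

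The counts depended on the threshold and on the window. At −log10 q of at least 5, WT with GSK2879552 kept CDC45 and DBF4 (2 of 9, against 7.92% of RB windows), and WT with both agents kept CDC6 and DBF4 (2 of 9, against 9.14%). Untreated K185R then had 0 of 9, against 4.47%. With 500 bases either side, WT with GSK2879552 had 4 of 9 genes, without CDC45, which then had no V5 interval. The share of RB windows at this width was not analysed here. With 5 kb either side of the start, untreated K185R had an interval at 5 of 9 genes, against 23.3% of RB windows, and WT with GSK2879552 remained at 5 of 9, against 14.5%. The K185R intervals gained in this way lay at CDC6, GMNN, GINS1 and CDC7, had 4 to 6 reads and had summits from −3988 to −2119. That of CDC6 ended 57 bases outside the 2 kb window, with a fold of 4.52 and 6 reads, and overlapped neither RB interval of CDC6.

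Sequencing depth was estimated as reads per kilobase of the effective genome, from the genome-wide background and the smallest interval width of a list. This takes that width as the fragment length and the counts as unscaled, neither of which was stated in the sources used here. The estimate was 0.716 in the WT list with GSK2879552 and 0.810 in that with both agents, the 2 lowest of the 8 V5 lists. It was 1.40 in WT with doxycycline and 1.79 in untreated K185R, the 2 highest, where 0 and 1 of the 9 genes had an interval. RB lists were deeper by this estimate, at 8.21 in C4-2 and 2.98 in VCaP. In each V5 list, intervals whose local background was 2 to 4 times the genome-wide level had at least 4 summit reads. A gene without an interval could thus still hold a few reads, and its absence from a list means not detected at this depth. The background at the 33 intervals was 1.28 to 5.54 times the genome-wide level, and none lay in a region of high background (10 times or more).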

How the data were processed

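RB and V5 ChIP-seq of 19 libraries in 10 groups was used as 1 deposited list of intervals per group. Per the submitters' processing notes, FastQC 0.11.9, BWA 0.7.9a, SAMtools 1.2, MACS2 2.1.0 and hg19 were used. Their roles and settings, duplicate handling and control libraries were not given in the sources used here. Interval names mark the V5 lists as merged from several libraries, whereas those of the C4-2 RB list name 1 library. The deposited columns are a score (10 times the −log10 q, not used further), a fold enrichment (a linear ratio), −log10 p-values and −log10 q-values, and the summit position.

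The members and lists were chosen with earlier results of these data known, and the text names all 9 genes whatever their values, with the presence or absence of an interval in each of the 10 lists. Start sites are those of the selection rule, and strands come from RefSeq. Since MACS2 forms the fold after adding 1 to numerator and denominator, and p from a Poisson distribution, summit reads and local background were solved from the deposited fold and −log10 p. The solution matched the deposited p within 0.000163 in every list. In simulated intervals (1000 per list) the exact number of reads was recovered for at least 98.3% of intervals. The simulated reads and backgrounds extended well above those of the V5 intervals, so this share is not specific to them. The genome-wide level is the smallest background that 5 or more intervals had in common, and its quotient by the smallest interval width is the estimate of depth. Poisson intervals cover counting error only, since PCR reads without molecular identifiers are not independent molecules. Comparison windows ran from base 1 to the last interval of each chromosome, so assembly gaps are included. Windows around RB sites, which can overlap one another, were added after the data had been seen. No test was made. Alternatives were −log10 q of at least 5, 500 bases or 5 kb either side, the summit inside the window, the 1000 strongest intervals by −log10 q, and no intervals of high background. An hg19 annotation was not used here, so shares of all gene starts and a wider list of replication genes were not analysed here. Python 3.11.15, pandas 2.3.3, NumPy 2.4.6, SciPy 1.17.1 and matplotlib 3.10.9 were used.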

Additional observations from a re-analysis of the deposited data

How the results depend on the processing

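Counts of genes per list and of lists per gene, 19 in all, were each recomputed under 6 alternatives. With 500 bases either side, with the summit inside the window and without intervals of high background, all 19 stayed within 1.5 times their reported value. Within this limit, 500 bases gave WT with GSK2879552 4 genes in place of 5, and CDC45 2 lists in place of 3. At −log10 q of at least 5, 14 of the 19 stayed within 1.5 times. The others were WT with GSK2879552 (2 genes in place of 5), WT with both agents (2 in place of 4), untreated K185R (0 in place of 1), and CDT1 and CDC7 (2 lists each in place of 4). With 5 kb either side, 16 did, and WT with doxycycline rose from 0 to 1 gene (GINS2), K185R with doxycycline from 0 to 1 (ORC1) and untreated K185R from 1 to 5. With the 1000 strongest intervals of each list, 10 did. The C4-2 RB list then held 5 genes in place of 9, WT with GSK2879552 2, WT with both agents 2 and untreated K185R 0. By gene, CDC6 had 2 lists, CDT1 1, ORC1 0, CDC45 1 and CDC7 2. Within the limit of 1.5 times, the VCaP RB list fell from 9 to 6 genes and DBF4 from 6 to 4 lists. These alternatives use fewer intervals or wider windows by construction. No paired analysis was possible because each group is 1 list, and for the same reason no library could be left out. Summits of 5 to 12 reads limit every V5 value.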
